A study of Mus musculus with 6 samples.

Results

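Endothelial marker genes were examined in messenger RNA of mouse aortas, with 3 libraries from knockouts of Mymsl (KO), a gene for a long noncoding RNA, and 3 from wild types (WT). The 10 markers were taken by symbol from a table of read counts per gene: Pecam1, Cdh5, Cldn5, Flt1, Kdr, Tie1, Tek, Vwf, Emcn and Egfl7. All 10 had a row among the 53735 rows of the table, and all 10 passed the filter on low counts that left 14145 rows for testing. The labels give genotype and tissue but no strain, age or form of the Mymsl allele. No row carries the name Mymsl, so the targeted gene is not analysed here. The labels also do not say whether a library came from 1 mouse or several, so p-values measure only the spread between these libraries, which may be technical. The extraction protocol names a purification of smooth muscle cells of the media as the source of RNA. Endothelial cells line the inner surface of the vessel and are not part of that layer.

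Endothelial cells hold the vessel wall tight through adherens junctions, with the cadherin of Cdh5, and tight junctions, with the claudin of Cldn5. The adhesion receptor of Pecam1 also lies at the contacts between these cells. Endothelial cells receive vascular endothelial growth factors through the receptors of Flt1 and Kdr, and angiopoietins through the receptor of Tek with its partner Tie1. They also release von Willebrand factor (Vwf), which tethers platelets, carry the surface sialomucin endomucin (Emcn), and secrete Egfl7 into the matrix. Pecam1 and Vwf are made by platelets and their precursors too, and Pecam1 by some leukocytes.

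In GRCm38, each marker is a protein-coding gene of GENCODE M21. The cell contact genes lie at chr11:106654217-106750628 (Pecam1), chr8:104101625-104144511 (Cdh5) and chr16:18776847-18778262 (Cldn5). Flt1 (chr5:147561604-147726011) and Kdr (chr5:75932827-75978458) share a chromosome, as do Tie1 (chr4:118471191-118490061) and Tek (chr4:94739289-94874976). Vwf lies at chr6:125546774-125686679, Emcn at chr3:137341067-137432185 and Egfl7 at chr2:26580014-26593120.

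The stretches of 250 bases before the RefSeq start sites are shown for Flt1 and Cldn5, the members with the smallest p in the genotype comparison, and for Kdr, whose KO mean was below its WT mean. Transcription factors of the ETS family, which bind words around the core GGAA, are among the main regulators of endothelial genes. Capitals mark GGAA on either strand (TTCC on the strand shown). Flt1 lies at chr5:147726012-147726261 on the minus strand, Kdr at chr5:75978456-75978705 on the minus strand and Cldn5 at chr16:18776597-18776846 on the plus strand, all in RefSeq's GRCm38.p6.
Flt1: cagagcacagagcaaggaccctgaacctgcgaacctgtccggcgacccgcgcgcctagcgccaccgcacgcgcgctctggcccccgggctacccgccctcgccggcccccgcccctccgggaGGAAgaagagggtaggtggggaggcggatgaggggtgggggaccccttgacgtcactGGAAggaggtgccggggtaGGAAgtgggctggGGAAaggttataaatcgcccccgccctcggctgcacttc
Kdr: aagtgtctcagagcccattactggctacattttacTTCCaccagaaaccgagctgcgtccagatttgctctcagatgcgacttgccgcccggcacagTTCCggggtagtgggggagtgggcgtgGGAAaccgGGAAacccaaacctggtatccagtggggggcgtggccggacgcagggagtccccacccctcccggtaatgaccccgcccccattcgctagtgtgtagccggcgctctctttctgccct
Cldn5: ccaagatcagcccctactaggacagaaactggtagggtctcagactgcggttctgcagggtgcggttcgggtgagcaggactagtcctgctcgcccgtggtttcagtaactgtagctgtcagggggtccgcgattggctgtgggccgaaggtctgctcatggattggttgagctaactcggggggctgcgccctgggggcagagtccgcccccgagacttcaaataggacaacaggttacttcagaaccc
The core occurred 4 times in the Flt1 window, 4 times in the Kdr window and 0 times in the Cldn5 window. Of 9 windows that the RefSeq table gave for 7 of the members, 8 held it, and 93.4% of all 32851 windows of this length held it too. The longer word AGGAAGT, which contains the core, was in 3 of the 9 windows and in 7.69% of all windows. Of those 3, Flt1 has 1 and the others are alternative start windows of Egfl7, so windows are not separate genes. These matches describe letters in the windows and show no binding.

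Egfl7 is also the host gene of a microRNA known for its role in endothelial cells. The hairpin of Mir126a lies at chr2:26591357-26591429 on the plus strand of GRCm38, and 8 of the 9 Egfl7 transcripts that span it have it in an intron. Its mature strand is shown with the seed, bases 2 to 8, in capitals.
miR-126a-3p: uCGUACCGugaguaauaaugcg
The Mir126a row had 0 counts in every library. The libraries were made from poly(A) RNA, so the measurements below concern the Egfl7 messenger RNA alone.

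Total counts lay between 20048216 and 25521123 per library. Levels are given in CPM, counts scaled to library size with trimmed mean of M values (TMM). The 10 markers summed to between 378 and 499 CPM in WT libraries and to 430, 466 and 736 CPM in KO replicates 2, 1 and 3, while 11 smooth muscle markers summed to between 51231 and 66867 CPM. Smooth muscle transcripts far exceeded the endothelial ones, which were nevertheless present in every library. KO replicate 3 stood apart in the markers: it was the highest of the 6 libraries at 8 of the 10, against 16.2% of all tested rows. For the markers, and for other genes that were highest in that library, the edgeR fold change is therefore given with and without it. In bulk RNA, a larger number of endothelial cells and more RNA of a gene per cell cannot be told apart. How many endothelial cells the named purification of smooth muscle cells left in each library was not measured. The number in a library need therefore not be the number in the aorta.

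Levels between genes were compared as CPM per kilobase of exon, using the joined exons of GENCODE M21. Pecam1 led with a mean over the 6 libraries of 34.3 ± 10.2 (SD, n = 6), above Cldn5 (9.94 ± 3.26) in all 6 libraries. Cdh5 (7.38 ± 2.43) came next and did not differ from Vwf (6.64 ± 1.87) beyond their spread, since it was the higher in 4 of 6 libraries. Tie1 (5.6 ± 1.97), Tek (5.37 ± 1.89) and Egfl7 (4.75 ± 1.5) also overlapped. Flt1 lay at 2.94 ± 0.392, below Egfl7 and above Kdr in every library. Kdr (0.750 ± 0.199) and Emcn (0.715 ± 0.143) were the lowest and overlapped each other. With the longest coding transcript as the length, Pecam1 was again first, Egfl7 (12.2) and Vwf (12.1) moved to the second and the third place, and Emcn (1.5) stood above Kdr (1.14) in all 6 libraries. The middle of the order therefore depends on the exon model.

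**Figure D1:**
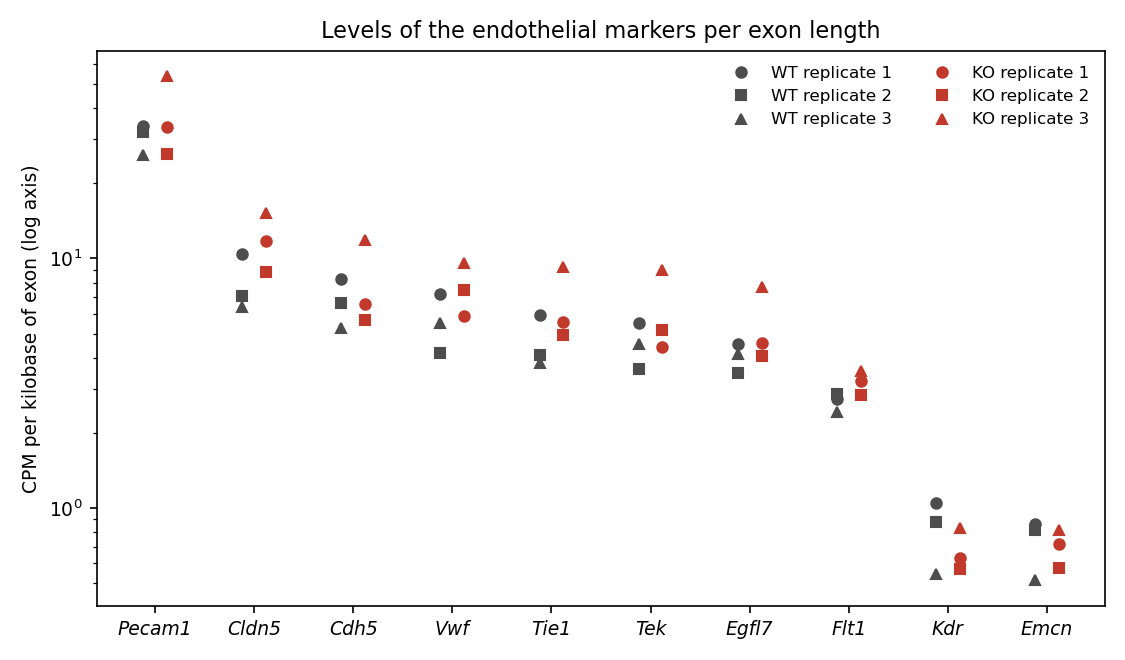
Levels of the 10 endothelial markers in CPM per kilobase of exon, on a log axis, with genes ordered by their mean over the libraries. Each point is 1 library, grey for WT and red for KO, with a marker shape per replicate number. Pecam1 lies highest with a mean of 34.3, while Kdr and Emcn lie lowest at 0.750 and 0.715.

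Among the cell contact genes, Pecam1 had 211, 200.3 and 162 CPM in the WT libraries and 209, 164 and 335 CPM in the KO libraries. Here and below, values follow the order of replicates 1, 2 and 3. KO replicates 1 and 2 fell within the WT range, and KO replicate 3 lay 1.59 times above the next highest library. The log2 fold change, KO over WT, was 0.30 ± 0.244 (SE, n = 3 per genotype), with an adjusted p of 0.572 by edgeR's quasi-likelihood test. Cdh5, the cadherin of endothelial adherens junctions, measured 34.7, 27.9 and 22.2 CPM in WT and 27.6, 23.8 and 49.9 CPM in KO. It showed the same arrangement, with KO replicates 1 and 2 inside the WT range and KO replicate 3 above it (log2 0.26 ± 0.284, adjusted p = 0.688). Without KO replicate 3 the log2 fold changes of Pecam1 and Cdh5 were −0.038 and −0.14. Cldn5, the claudin that seals endothelial tight junctions, measured 14.8, 9.97 and 9.07 CPM in WT and 16.7, 12.5 and 21.5 CPM in KO. Here KO replicates 1 and 3 were above every WT library and KO replicate 2 lay below WT replicate 1. Cldn5 had the largest log2 fold change of the 10 (0.58 ± 0.242) and an unadjusted p of 0.0437, but did not pass over all rows in edgeR (adjusted p = 0.330). It was 0.37 ± 0.234 without KO replicate 3.

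The receptors for vascular endothelial growth factor had fold changes of opposite sign, and neither passed over all rows. Flt1 encodes a high-affinity receptor that also exists as a soluble form and can hold the ligand back. It measured 36.8, 38.7 and 32.8 CPM in WT and 43.7, 38.2 and 47.7 CPM in KO. KO replicates 1 and 3 lay above all WT libraries, and KO replicate 2 lay just below WT replicate 2. The log2 fold change was 0.26 ± 0.101, with the smallest p of the 10 in edgeR (unadjusted 0.0351, adjusted 0.317). It was 0.18 ± 0.103 without KO replicate 3, and Flt1 was the member with the smallest spread (coefficient of variation 8.46% in WT and 11.1% in KO). Kdr, the main signalling receptor for vascular endothelial growth factor A, measured 9.42, 7.95 and 4.93 CPM in WT and 5.67, 5.16 and 7.53 CPM in KO. All KO libraries lay below WT replicates 1 and 2 and above WT replicate 3 (log2 −0.28 ± 0.256, adjusted p = 0.628 by edgeR; −0.46 without KO replicate 3). In KO replicate 3, where most markers were highest, Kdr was 1.01 times its WT mean. Its lowest count was 108, in KO replicate 2, where counting error (9.62%) was smaller than the coefficient of variation in KO (20.3%) and in WT (30.8%).

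The angiopoietin receptor pair showed the library arrangement of Pecam1 and Cdh5. Tie1, an orphan receptor that forms complexes with the receptor of Tek, measured 29.1, 20.3 and 18.8 CPM in WT and 27.3, 24.2 and 45.6 CPM in KO. Tek measured 25.9, 17.0 and 21.3 CPM in WT and 20.8, 24.5 and 42.3 CPM in KO. For both genes, KO replicates 1 and 2 lay within the WT range and KO replicate 3 above it, by 1.57 times the next highest library for Tie1 and 1.63 times for Tek. The log2 fold changes were 0.51 ± 0.261 for Tie1 and 0.45 ± 0.271 for Tek (adjusted p = 0.390 and 0.450 by edgeR), and 0.18 and 0.082 without KO replicate 3.

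The secreted and surface proteins showed different patterns. Vwf measured 116, 67.4 and 88.6 CPM in WT and 94.4, 120.1 and 154 CPM in KO. KO replicates 2 and 3 lay above every WT library, and KO replicate 1 fell inside the WT range (log2 0.44 ± 0.226, adjusted p = 0.397 by edgeR; 0.24 without KO replicate 3). Platelet and megakaryocyte markers, whose cells also make Vwf, were near the detection limit: 3 of 12 passed the filter, and the list summed to between 6.16 and 16.3 CPM in WT and between 8.36 and 9.13 CPM in KO, highest in WT replicate 1. Egfl7 measured 16.3, 12.4 and 14.9 CPM in WT and 16.3, 14.5 and 27.6 CPM in KO, with KO replicate 3 at 1.69 times the next highest library (log2 0.43 ± 0.238, adjusted p = 0.423; 0.089 without KO replicate 3). Egfl7 shares 64 bases of exon with Agpat2 on the opposite strand and 264 with Gm20532 on the same strand, so its count is uncertain by the reads of those stretches. Emcn measured 4.65, 4.41 and 2.77 CPM in WT and 3.87, 3.11 and 4.41 CPM in KO, and the genotypes overlapped fully (log2 −0.055 ± 0.242, adjusted p = 0.932; −0.18 without KO replicate 3). With a lowest count of 65, in KO replicate 2, it had the largest counting error of the 10 (12.4%). That was below its coefficient of variation in KO (17.3%) and in WT (25.9%).

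**Figure D2:**
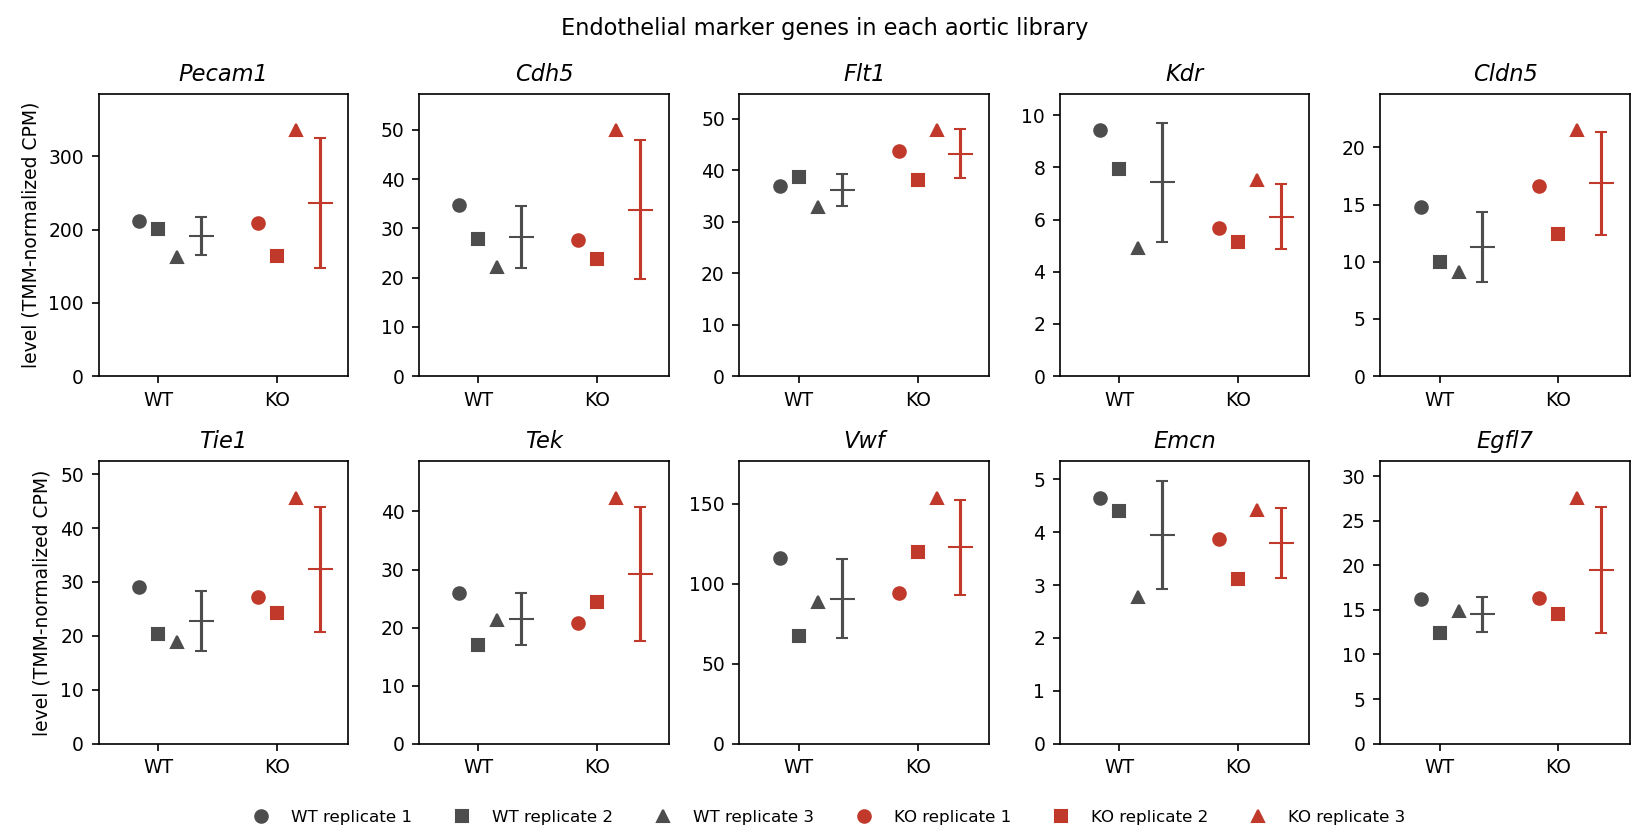
Levels of the 10 endothelial markers in each library, in TMM-normalized CPM on axes that start at 0, grey for WT and red for KO with a marker shape per replicate number. The horizontal dash and bars to the right of each group give mean and SD (n = 3). KO replicate 3 is the highest point for 8 genes, and the exceptions are Kdr and Emcn.

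Over the set, edgeR called 0 of the 10 markers, and 0.00707% of all 14145 tested rows (1 row). At an unadjusted p under 0.05, edgeR gave 2 of the 10 (Flt1 and Cldn5, both higher in KO) against 14.6% of all rows in either direction and 6.8% higher in KO. Under the same limit limma-voom gave 2 against 14.2% of its rows, and DESeq2 gave 4 against 7.29% of its 24841 rows, which were not filtered. After adjustment limma-voom called 0 members. DESeq2 gave an adjusted p to 9 of the 10, leaving out Emcn, and called 0 of them, against 1.85% of the rows it adjusted. For 0 of the 10 did the KO and WT libraries separate, against 21.8% of all rows. The log2 fold change was above 0 for 8 of 10 markers, against 52.5% of all rows, with a median of 0.37 against 0.012 over all rows. Without KO replicate 3 it was above 0 for 6 of 10 with a median of 0.085. At an unadjusted p under 0.05 in edgeR, that setting gave 0 of the 10, against 1866 of 14353 rows. Leaving out KO replicate 2 instead gave 5 of the 10, against 2323 of 14432 rows. With KO replicate 3 and WT replicate 1 both left out, the library of highest endothelial level in each genotype, 8 of 10 were above 0 with a median of 0.19. There, 3 of the 10 had an unadjusted p under 0.05 in edgeR, against 1281 of 14003 rows. Those libraries were picked by the marker levels themselves, which narrows the spread of the markers more than that of other rows. No conclusion is therefore drawn from the values of this setting.

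**Figure D3:**
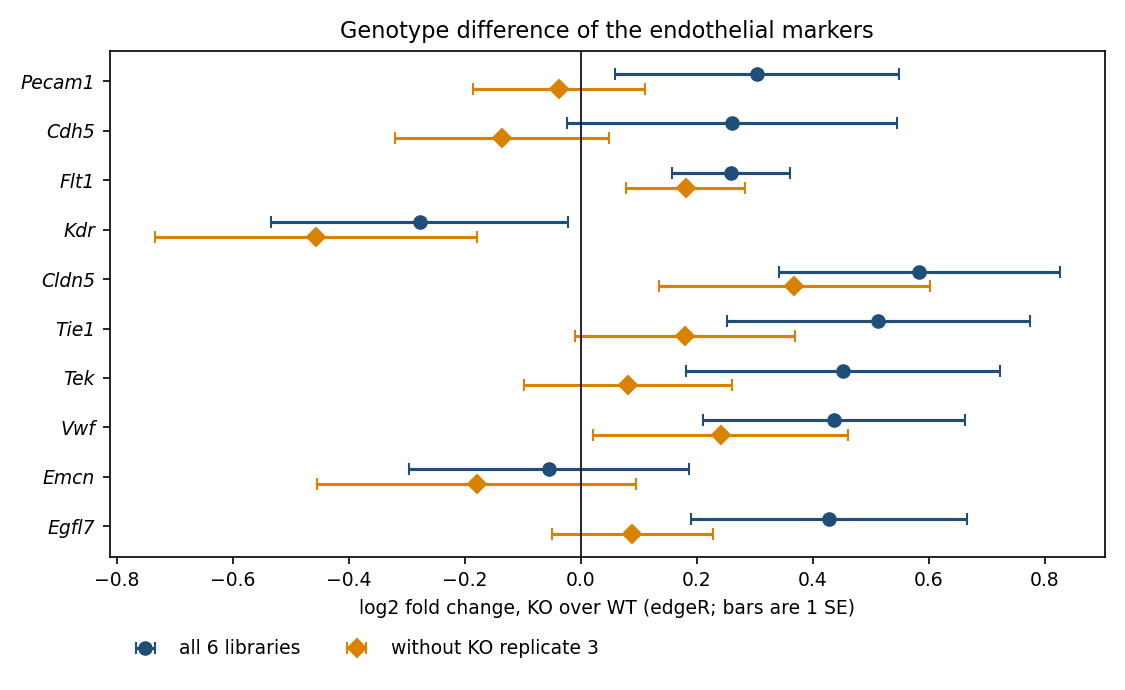
Log2 fold changes, KO over WT, of the 10 markers from edgeR, with bars of 1 SE, in blue for all 6 libraries and in orange without KO replicate 3. With all libraries 8 genes lie above 0, and without KO replicate 3 there are 6, with Pecam1 and Cdh5 on the other side at −0.038 and −0.14.

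Single libraries were compared by the median over the markers of log2 CPM minus the WT mean of each gene. WT replicates 1, 2 and 3 had 0.31, −0.067 and −0.24, and KO replicates 1, 2 and 3 had 0.11, 0.047 and 0.83. KO replicates 1 and 2 thus lay within the WT range, and KO replicate 3 above it. The mean of KO replicates 1 and 2 exceeded the WT mean for 6 of 10 markers, against 50.9% of all rows. KO replicate 3 was at least 1.5 times the mean of the other KO libraries for 5 of 10 (Pecam1, Cdh5, Tie1, Tek and Egfl7), against 6.73% of all rows. For those 5 genes it was between 1.77 times (Tie1) and 1.94 times (Cdh5) that mean. Cldn5 (1.48), Vwf (1.43), Kdr (1.39), Emcn (1.27) and Flt1 (1.17) had smaller ratios.

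The markers were also set against each other within a library, where library size cancels out. Of 7 ratios, chosen after the values were seen, 0 passed an exact two-sided permutation test after adjustment, and 3 against 3 libraries allow no p below 0.1. Cldn5 relative to Cdh5 was 42.5%, 35.8% and 40.9% in WT and 60.4%, 52.3% and 43.1% in KO, with all KO values above all WT values (exact p = 0.1, adjusted 0.467). Kdr relative to Pecam1 was 4.46%, 3.97% and 3.03% in WT and 2.71%, 3.15% and 2.24% in KO, overlapping in WT replicate 3 and KO replicate 2 (exact p = 0.2, adjusted 0.467). Cdh5 relative to Pecam1 stayed between 13.2% and 16.5% in all libraries (exact p = 0.8). Tek relative to Tie1 lay between 76.4% and 113%, and Vwf relative to Pecam1 between 33.7% and 73.4%.

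Likeness was measured by Pearson's r of log2 CPM over the 6 libraries, as a description, since all values share these libraries. Each marker against the mean of the other 9 gave r of 0.98 for Tie1, 0.96 for Cdh5, 0.92 for Pecam1, 0.90 for Cldn5, 0.88 for Egfl7, 0.84 for Tek, 0.77 for Flt1, 0.72 for Vwf, 0.59 for Emcn and 0.45 for Kdr. Among 11126 other genes with a mean of at least 2 CPM, those most like the mean of the 10 were Hspa8 (r = 0.99), Aim1, Samd9l, Rpl11, Sox17, Enpp6, Rps15a, Rasip1, Hspb11 and Thrsp (r = 0.97). Sox17, an endothelial transcription factor, measured 6.97, 5.52 and 4.55 CPM in WT and 6.55, 6.31 and 12.9 CPM in KO (log2 0.60 ± 0.304, adjusted p = 0.389 by edgeR; 0.18 without KO replicate 3). Rasip1, which supports the opening of vessel lumens, measured 9.01, 5.52 and 5.80 CPM in WT and 7.79, 7.17 and 14.0 CPM in KO (log2 0.52 ± 0.300, 0.14 without KO replicate 3). Both were highest in KO replicate 3, which their choice by likeness to the marker mean already favours.

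A further 30 endothelial genes, none of them a member, were summarised in the same way. In edgeR 0 of 30 passed over all rows, and 3 had an unadjusted p under 0.05, against 14.6% of all rows. The log2 fold change was above 0 for 26, against 52.5% of all rows, with a median of 0.40. Without KO replicate 3, 20 were above 0 with a median of 0.087. KO replicate 3 was the highest library for 22 of the 30, against 16.2% of all tested rows. Calcrl had the smallest p of the 30 in edgeR and was lower in every KO library, with values given under Other observations. Only Calcrl among the 30 passed in DESeq2, which gave no adjusted p to several of them, Myct1 included. Ptprb, a phosphatase that acts on the receptor of Tek, measured 131, 92.8 and 87.2 CPM in WT and 131, 112 and 192 CPM in KO (log2 0.49 ± 0.222, adjusted p = 0.359; 0.23 without KO replicate 3). Eng, a co-receptor for ligands of the TGF-beta family, measured 82.5, 82.4 and 78.3 CPM in WT and 89.9, 86.4 and 105 CPM in KO, higher in every KO library (log2 0.21 ± 0.081, adjusted p = 0.315; 0.12 without KO replicate 3). Myct1 also had every KO library above every WT library, at 4.15, 2.82 and 3.77 CPM in WT and 4.49, 4.78 and 9.82 CPM in KO (log2 0.83 ± 0.327, adjusted p = 0.317; 0.37 without KO replicate 3). Over all tested rows, every KO library lay above every WT library in 10.5% and below every WT library in 11.3%. Naming genes by smallest p, here and in the lists below, favours such separation.

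Of 11 tested genes for vascular endothelial growth factors, angiopoietins and related factors, 0 passed in edgeR, 4 were above 0, the median was −0.17, and KO replicate 3 was the highest library for 0. That median was −0.29 without KO replicate 3, −0.097 without WT replicate 1 and −0.047 without KO replicate 2. Angpt4, an angiopoietin that binds the receptor of Tek, measured 23.0, 29.0 and 19.0 CPM in WT and 7.89, 13.2 and 17.4 CPM in KO, lower in every KO library. Its log2 fold change was −0.88 ± 0.273, which passed in DESeq2 (adjusted p = 0.0448) and not in edgeR (adjusted p = 0.277). Angpt2, which opposes angiopoietin 1 in many settings, measured 119, 101 and 114 CPM in WT and 98.7, 116 and 87.3 CPM in KO (log2 −0.15 ± 0.112; −0.055 without KO replicate 3). Vegfb, a ligand of the Flt1 receptor, measured 30.3, 27.7 and 28.5 CPM in WT and 33.7, 30.9 and 32.3 CPM in KO, higher in every KO library (log2 0.16 ± 0.071, adjusted p = 0.344 by edgeR). Vegfa, the main ligand of Kdr, named here after its values were seen, measured 20.7, 16.9 and 24.2 CPM in WT and 17.1, 29.0 and 27.1 CPM in KO. Of 10 co-receptors and modulators of these pathways, 0 passed in edgeR, with a median of 0.074 that turned to −0.020 without WT replicate 3 and was 0.014 without KO replicate 3. Within them the semaphorin Sema3c (log2 −0.52 ± 0.108) and the integrin subunit Itgb3 (−0.63 ± 0.183) were lower in every KO library and passed in DESeq2 (adjusted p = 0.00392 and 0.0324) but not in edgeR (0.239 and 0.273).

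The proteins that anchor the junctions inside the cell are made in many cell types. Of 15 tested partners, 0 passed in edgeR, 8 were above 0 and the median was 0.0094, between −0.031 and 0.023 with single libraries left out. Ctnnb1, the beta-catenin that binds the tail of cadherins, measured 951, 893 and 929 CPM in WT and 773, 816 and 798 CPM in KO, lower in every KO library (log2 −0.22 ± 0.071, adjusted p = 0.279). Jam2, a junctional adhesion molecule of endothelial cells, measured 33.8, 29.0 and 26 CPM in WT and 49.5, 27.7 and 51.0 CPM in KO (log2 0.53 ± 0.223, adjusted p = 0.338; 0.38 without KO replicate 3). Of 25 transcription factors active in endothelium, 0 passed in edgeR, with 15 above 0 and a median of 0.19 (0.035 without KO replicate 3). Klf2, which responds to blood flow, measured 22.8, 22.2 and 24.3 CPM in WT and 33.1, 21.4 and 57.2 CPM in KO (log2 0.69 ± 0.307, adjusted p = 0.349; 0.24 without KO replicate 3). Ets2, of the ETS family, was lower in every KO library, at 108, 106 and 101 CPM in WT and 82.5, 88.5 and 98.2 CPM in KO (log2 −0.23 ± 0.076, adjusted p = 0.279). The 16 tested genes of storage granules and haemostasis, Vwf among them, had 12 above 0 and a median of 0.13, and 0 passed in edgeR. Without KO replicate 3, 8 of the 16 were above 0 and the median was 0.012, and without WT replicate 2 it was 0.066.

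Lists for types of endothelium were set beside the markers. The 18 arterial genes, of which 0 passed in edgeR, had 12 above 0 and a median of 0.21, and KO replicate 3 was the highest library for 10. That median was 0.15 without KO replicate 3, 0.12 without WT replicate 3 and 0.32 without KO replicate 2. Gkn3, a marker of arterial endothelium, measured 6.39, 6.28 and 3.27 CPM in WT and 10.3, 17.3 and 16.8 CPM in KO, higher in every KO library. Its log2 fold change of 1.48 ± 0.292 passed in DESeq2 (adjusted p = 0.000393) and not in edgeR (adjusted p = 0.239). Bmx, a kinase of arterial endothelium, measured 8.30, 5.48 and 6.13 CPM in WT and 8.82, 9.98 and 16 CPM in KO, again higher in every KO library (0.81 ± 0.256, adjusted p = 0.277 in edgeR and 0.0857 in DESeq2; 0.50 without KO replicate 3). Several arterial genes are also made by smooth muscle, among them Eln, for elastin, which measured 4443, 3519 and 4791 CPM in WT and 1831, 3262 and 2784 CPM in KO, lower in every KO library (log2 −0.69 ± 0.219, adjusted p = 0.277 in edgeR and 0.0297 in DESeq2). Fabp4, among the genes of highest level in the capillary list, is also in the white adipocyte list used below. The 15 capillary genes had 7 above 0 and a median of −0.037, with KO replicate 3 the highest library for 3. This median had no stable sign, since it was −0.24 when KO replicate 3 was left out but 0.15 when KO replicate 2 was. It was 0.098 and 0.12 when WT replicate 1 or 2 was omitted. The 10 venous genes had 5 above 0 and a median of 0.040, with KO replicate 3 the highest for 5, and the median became −0.040 when WT replicate 2 was omitted, 0.27 when WT replicate 1 was, and −0.039 when KO replicate 3 was. In the venous list Il1r1, the receptor for interleukin 1, measured 68.5, 62.7 and 77.3 CPM in WT and 55.0, 53.6 and 50.6 CPM in KO, lower in every KO library (log2 −0.39 ± 0.084, adjusted p = 0.239 in edgeR and 0.0324 in DESeq2). The 8 tested lymphatic genes had 6 above 0 and a median of 0.19, with KO replicate 3 the highest for 0. Their median was −0.051 with 3 above 0 without KO replicate 1, 0.0013 without WT replicate 3, 0.069 without WT replicate 2, 0.39 without WT replicate 1 and 0.32 without KO replicate 3. None of the genes in these 3 lists passed in edgeR.

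Markers of other cells moved with the endothelial genes in some libraries, and their part in these results was not tested. In KO replicates 1, 2 and 3 the list medians of log2 CPM minus the WT mean were 0.40, −0.52 and 0.75 for 13 macrophage genes, and 0.11, −0.066 and 0.78 for 12 white adipocyte genes. In WT replicate 1, the WT library of highest endothelial level, they were 0.33 and 0.64. Macrophage genes summed to between 61.3 and 103 CPM in WT and between 57.1 and 151 CPM in KO. White adipocyte genes summed to between 645 and 859 CPM in WT and between 722 and 839 CPM in KO. Interferon response genes stood furthest apart in KO replicate 3, with a median of 1.90 there against 0.27 and 0.16 in KO replicates 1 and 2, and that library was the highest for 25 of 27. Smooth muscle genes had −0.13, 0.070 and −0.11, and pericyte genes −0.20, −0.13 and −0.15. Lymphocyte markers (13) and mesothelial markers (8) all failed the filter on low counts, with sums of at most 2.32 and 1.17 CPM. Mitochondrially encoded genes held between 5.66% and 9.02% of counts in WT and 18.9%, 10% and 13% in KO replicates 1, 2 and 3, higher in every KO library. Any link of this share to the endothelial medians was not tested.

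**Figure D4:**
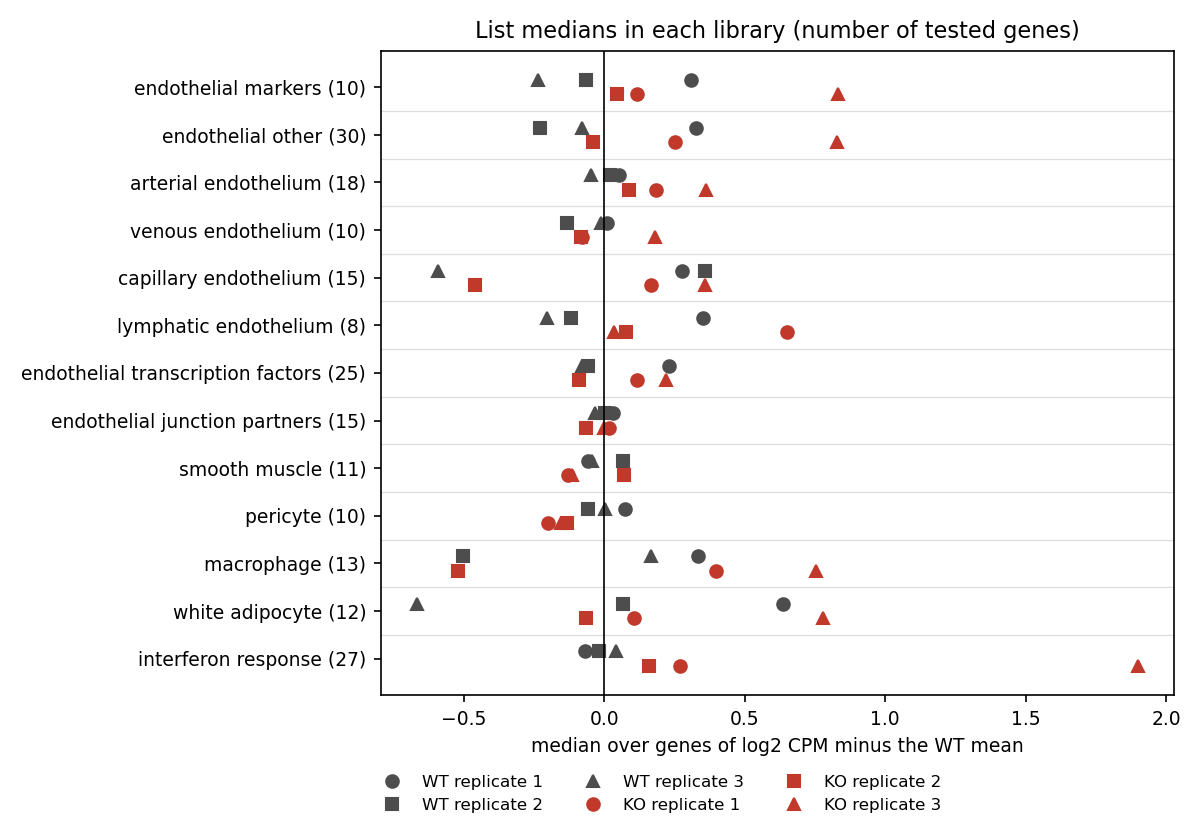
Median over the tested genes of each list of log2 CPM minus the WT mean, with 1 point per library, grey for WT and red for KO, and the number of tested genes in brackets (endothelial other: 30 further endothelial genes). KO replicate 3 lies at 0.83 for the endothelial markers and at 1.90 for interferon response genes, while it lies at 0.034 for lymphatic genes.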

How the data were processed

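The authors deposited unnormalized read counts by gene, 1 column for each of 6 libraries. The submitters' processing notes name GRCm38, Subread 1.6.1 with featureCounts, STAR 2.6.0c and Trimmomatic 0.36. Libraries used a stranded poly(A) kit, per the labels' protocols. For annotation release and strand setting nothing is stated in the sources used here, so reads shared by overlapping genes are uncertain. Columns were matched to libraries by the names in the labels.

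Differences were tested with edgeR 4.0.16 (quasi-likelihood, genotype only, TMM, filterByExpr with minimum count 10 and total 15) in R 4.3.3. Tests were two-sided and adjusted over 14145 rows by Benjamini-Hochberg, with a threshold of 0.05. On simulated data the test recovered 36% of 1.5-fold and 72% of 2-fold changes, and 7 of 154 called genes were unchanged. The libraries themselves gave 1 called row in edgeR, far fewer than the simulation, so these recovery rates need not hold for them. The largest fold change of a member was 1.50 (Cldn5). Calling 0 members cannot exclude changes of that size, nor larger ones. Each standard error was derived as log2 fold change over the root of F. Log2 CPM used a prior count of 2. Exon lengths came from GENCODE M21 and promoters from RefSeq.

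Alternatives were DESeq2 1.42.0 (size factors, and the test), limma-voom 3.58.1, total counts only, other filters, mitochondrial and hemoglobin genes left out, a replicate block, and each library left out. Leaving out KO replicate 3 with WT replicate 1 was chosen after seeing the data. The members and the 24 lists were chosen with earlier results of these data known. Named from a list were up to 3 genes by p and 3 by level, any called gene, and the 10 genes most like the members. Vegfa, Ramp2 and Erg were chosen after their values were seen.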

Additional observations from a re-analysis of the deposited data

How the results depend on the processing

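No endothelial marker was called under any of the 15 alternatives, where the smallest adjusted p was 0.226 (Cldn5, DESeq2). The count over all genes was 1 with all libraries in edgeR, 192 with the DESeq2 test, 9 with no filter, 0 with the replicate block, 0 with KO replicate 3 and WT replicate 1 both left out, and between 0 and 3 with each single library left out. The median log2 fold change of the markers was 0.37, 0.32 with the replicate block, and between 0.085 and 0.49 with single libraries left out, lowest without KO replicate 3. With single libraries left out, Pecam1 lay between −0.038 and 0.51, Cdh5 between −0.14 and 0.46 and Emcn between −0.25 and 0.083. Pecam1 and Cdh5 changed sign without KO replicate 3, and Emcn when WT replicate 1 (0.083), KO replicate 2 (0.073) or WT replicate 2 (0.033) was left out. The other 7 markers kept their sign under all 15. Same-numbered WT and KO libraries had correlations of deviations of 0.11, 0.13 and −0.056, and WT replicates 1 and 3 correlated best with another number, so the numbers were not taken as pairs. With the lowest count of a member at 65, counting error limits Emcn most.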

Other observations

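The receptor subunit Calcrl and its partner Ramp2 together bind adrenomedullin. With all libraries their log2 fold changes had opposite signs, but for Ramp2 only KO replicate 3 lay outside the WT range. Calcrl measured 105, 93.8 and 90.6 CPM in the WT libraries and 63.2, 81.4 and 66.0 CPM in the KO libraries, each in the order of replicates 1, 2 and 3, lower in every KO library (log2 −0.46 ± 0.107). It passed in DESeq2 (adjusted p = 0.0227) and not in edgeR (adjusted p = 0.261). Ramp2 measured 19.1, 11.6 and 17.1 CPM in WT and 18.7, 13.7 and 33.1 CPM in KO (log2 0.46 ± 0.322, adjusted p = 0.513 by edgeR; 0.024 without KO replicate 3).

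The transcription factor Erg, used as an endothelial marker elsewhere, measured 94.3, 76.7 and 86.8 CPM in WT and 78.0, 68.9 and 81.8 CPM in KO (log2 −0.17 ± 0.095, adjusted p = 0.419 by edgeR). It was not highest in KO replicate 3, and its r with the mean of the 10 markers was 0.22 over the 6 libraries. Mmrn1, found in lymphatic endothelium and platelets, varied between libraries of the same genotype, at 8.09, 4.97 and 2.40 CPM in WT and 0.155, 6.12 and 0.952 CPM in KO (log2 −1.09 ± 0.923, adjusted p = 0.592; −0.70 without KO replicate 3).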
